A study of Mus musculus with 10 samples.

Results

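The genes described here are the Zfp zinc finger genes expressed in mouse embryonic stem cells. They were taken by name: a symbol made of Zfp and a number in the exon window files, whose RPKM averaged 2 or more in the 2 wild-type (WT) input columns. Of 30419 genes in the files, 332 had such a name and 172 of these reached the threshold. Zfp42, Zfp57 and Zfp91 were left out, which gave 169 genes against 9437 other genes at the same threshold. Zfp382 (2.03 and 2.00 RPKM in the WT inputs) and Zfp707 (2.04 and 2.05) lay just inside the threshold. Zfp369 (1.97 and 2.00) and Zfp418 (1.94 and 2.05) lay just outside it.

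Most Zfp genes encode proteins with arrays of C2H2 zinc fingers, small folds that each hold a zinc ion and read a few bases of DNA. Many carry a KRAB domain, which recruits the corepressor Trim28 and through it silences retroelements and imprinted loci in embryonic stem cells. The finger array is usually encoded in 1 long last exon. N6-methyladenosine (m6A) is a methyl mark on messenger RNA that lies mostly in long internal exons and near stop codons, and Mettl3 is the catalytic subunit of the complex that writes it. A symbol does not fix the protein family: Zfp36 has CCCH fingers, and Zfp185 is a LIM domain protein.

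Fragmented total RNA of the J1 line, grown without feeder cells, was precipitated with an m6A antibody (IP) and sequenced beside unprecipitated RNA (input). The study compared 2 IP and input pairs of Mettl3 knockout (KO) cells with 2 pairs of cells whose labels give Mettl3 as WT. A further pair, called the first IP and the first input, has no genotype in its labels. The labels do not give the altered part of Mettl3, the number of KO clones, or whether replicates were separate cultures, so the p-values reflect spread between libraries that may be no more than technical.

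The files held scaled coverage in exon windows, with 1 scaling factor for each library, and no read counts. With the first library of each kind as 1, depth was 0.0606 to 0.0644 in the KO IPs and 0.0712 to 0.159 in the WT IPs, and 0.285 to 0.516 in the KO inputs and 0.438 to 0.457 in the WT inputs. Mettl3 had a mean input coverage of 3.14 and 3.38 in KO cells, against 4.79 and 4.67 in WT cells, with 12.9 in the first input. The change was -0.43 on the log2(coverage + 1) scale (limma adjusted p = 0.00259), and most of its coverage remained in KO cells. Summed input coverage of 10 stem cell markers was 2276 and 2131 in KO cells and 2823 and 2906 in WT cells, with all of them detected in every library. Dppa5a was the largest part of this sum, with 1121 and 1029 in KO cells and 1525 and 1539 in WT cells. Utf1 was higher in KO cells, Pou5f1 overlapped between the groups, and the others were lower. Summed coverage of 7 fibroblast markers was 2.75 and 2.44 in KO cells and 2.86 and 2.53 in WT cells, with Lum at 0 throughout. Most of it was Thy1, which was lower in KO cells (2.22 and 2.07, against 2.75 and 2.43 in WT cells). Col1a1 (0.287 and 0.204, against 0.0868 and 0.0567), Col1a2, Col3a1 and Postn were higher in KO cells, and Dcn overlapped. Summed coverage of 7 markers of differentiated cells was 3.60 and 3.09 in KO cells and 1.33 and 1.17 in WT cells, most of it from Nes. The part of these marker differences in the results below was not tested.

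Zfp genes had few exons, and 1 of them held most of the transcript. They had a median of 5 exons and 70 windows, with 50 windows in the longest exon. Other genes had a median of 9 exons and 57 windows, with 23 windows in the longest exon. A median of 81.6% of the windows of a Zfp gene lay in its longest exon, against 46.5% in other genes. The longest exon was 7 windows in the shortest case and 238 in the longest. Only Zfp830 had a single exon. Exons are numbered in genomic order in the files, so the 3′ exon is numbered 1 in a gene of the minus strand. With strands from RefSeq (GRCm38.p6), the longest exon was the 3′ exon in 131 of 139 Zfp genes (94.2%) and in 84.7% of other genes. The same table placed 37 of the 169 genes on chromosome 7 and 27 on chromosome 17.

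Regions of m6A enrichment were common in Zfp genes and lay mostly in the long exon. A region was a run of at least 2 consecutive windows in which the winscore of the first IP reached 2. The winscore, a log2 value computed by the authors, sets the ratio of IP to input in a window against the gene medians, so it shows peaks within a gene and not a shift of the whole gene. With this definition 140 of 169 Zfp genes had a region (82.8%), against 54.0% of all genes at the RPKM threshold and 53.4% of the other genes alone. The 140 genes held 302 regions: 56 genes had 1, 42 had 2, 22 had 3 and 20 had 4 or more. At least 2 regions were found in 60.0% of Zfp genes with a region and in 38.5% of other genes with one. Zfp704, with 8 regions, had the most, followed by Zfp106, Zfp516 and Zfp945 with 6 each. Zfp275, Zfp292, Zfp445, Zfp507, Zfp609 and Zfp866 were tied at 5. All 8 regions of Zfp704 lay in its exon 1 of 238 windows, the longest exon of any of the 169 genes. This map came from 1 library and has no replicate.

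The share of genes with a region was higher in Zfp genes in each of 4 classes of transcript length. Among genes of up to 40 windows, 60.0% of 15 Zfp genes had a region, against 25.9% of other genes. Among genes of 41 to 80 windows the shares were 81.2% of 96 Zfp genes and 58.0% of other genes. Among genes of 81 to 160 windows they were 89.8% of 49 Zfp genes and 75.4% of other genes. All 9 Zfp genes of 161 windows or more had a region, against 87.8% of other genes. Per 1000 windows there were 22.5 regions in Zfp genes and 13.0 in other genes. These shares are descriptions of 1 library with no test.

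By exon, 248 of the 300 regions in Zfp genes with several exons lay in the longest exon (82.7%), which held 72.7% of their windows. In other genes the longest exon held 73.2% of the regions and 45.8% of the windows. The share of regions in the long exon was thus nearer to its share of windows in Zfp genes. Of 236 regions in Zfp genes with a known strand, 193 lay in the 3′ exon (81.8%), against 67.3% in other genes. No region of a Zfp gene ran over an exon boundary, and few did in other genes (73 of 8186 regions).

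Within the long 3′ exon the enrichment was highest near its 5′ end. The exon was cut into 10 equal parts in 122 Zfp genes where it was both the longest exon and at least 20 windows long. Median winscore was highest in the second part, at 1.60 and 1.71 in the KO IPs, 1.44 and 1.74 in the WT IPs and 1.01 in the first IP. In the last part it was 0.32 and 0.01 in the KO IPs, -0.19 and -0.24 in the WT IPs and -0.13 in the first IP. The fall along the exon was therefore seen in all 5 IPs, and KO replicate 1 stayed highest beyond the fourth part. Of 188 regions in such exons, 135 (71.8%) had their summit nearer the 5′ end, against 77.2% in other genes.

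**Figure D1:**
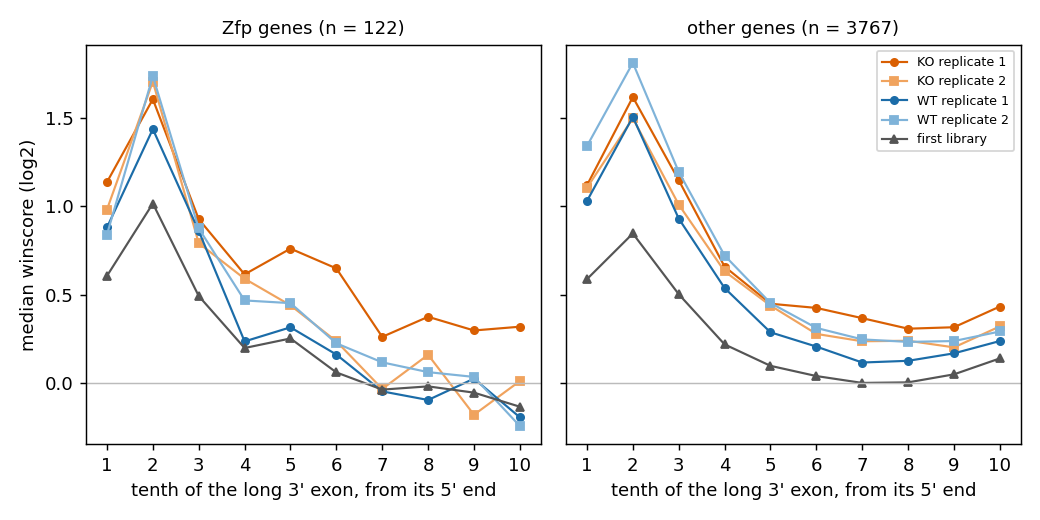
Median winscore (log2, y axis) in 10 equal parts of the long 3′ exon from its 5′ end (x axis), in 122 Zfp genes (left) and 3767 other genes (right), with a line for each of the 5 IPs. All lines peak in the second part, and the first IP is the lowest there, at 1.01 in Zfp genes.

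The 10 highest regions of the first IP, 1 per gene, kept a high winscore in all KO and WT libraries. They are given as mean winscores, and each value was over 3.8. The winscore is relative to the gene's own medians. IP over input without those medians, given below, was lower in KO cells in the median Zfp region. Zfp64, which encodes a C2H2 transcription factor, led in its 3′ exon 1 with 4.29 and 4.43 in the KO IPs, 5.21 and 3.86 in the WT IPs and 4.89 in the first IP. The KO values lay between the 2 WT values. Zfp472 exon 4 had 4.88 and 5.88 in the KO IPs, 3.98 and 4.26 in the WT IPs and 4.82 in the first IP, so both KO values were above both WT values. Zfp870 exon 1 had 4.14 and 4.51 in the KO IPs, 4.05 and 3.88 in the WT IPs and 4.72 in the first IP, again with both KO values above both WT values. Zfp191, listed in RefSeq as Zfp24 and needed for myelination in the mouse, had 6.53 and 5.90 in the KO IPs, 5.35 and 6.51 in the WT IPs and 4.66 in the first IP. Its groups overlapped, with KO replicate 1 and WT replicate 2 nearly level.

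Zfp84 exon 5 had 6.55 and 4.99 in the KO IPs, 4.72 and 5.003 in the WT IPs and 4.49 in the first IP, a spread between the KO replicates larger than the distance between the groups. Zfp740 exon 3 had 5.82 and 4.81 in the KO IPs, 4.68 and 4.84 in the WT IPs and 4.46 in the first IP. Zfp266 exon 1, whose region ran to the last window of the exon in the files' order, had 5.19 and 5.56 in the KO IPs, 4.93 and 5.50 in the WT IPs and 4.41 in the first IP. In these 3 genes the groups overlapped. Zfp142 exon 1 had 5.38 and 5.14 in the KO IPs, 4.50 and 4.80 in the WT IPs and 4.34 in the first IP, with both KO values above. Zfp275 exon 6 had 4.62 and 5.21 in the KO IPs, 4.09 and 4.93 in the WT IPs and 4.32 in the first IP. Zfp597 exon 1 had 3.97 and 5.22 in the KO IPs, 4.24 and 4.54 in the WT IPs and 4.27 in the first IP. None of the 10 regions passed the test of KO against WT (smallest limma adjusted p = 0.598, Zfp472).

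**Figure D2:**
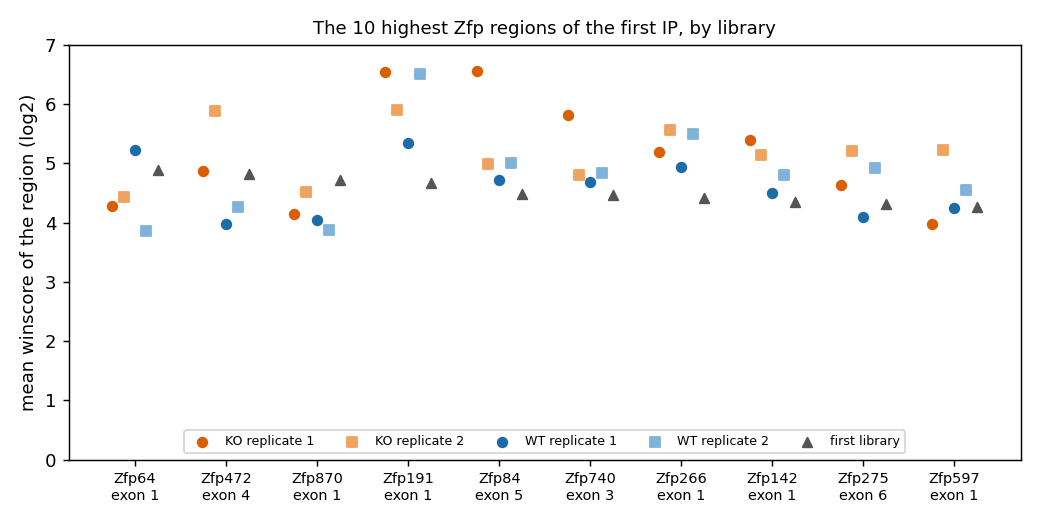
Mean winscore (log2, y axis) of the 10 highest Zfp regions of the first IP (x axis, by gene and exon number), with a point for each of the 2 KO IPs, the 2 WT IPs and the first IP. Every point is above 3.8, and by this measure, which is relative to the gene medians, the KO points are not below the WT points as a group.

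The KO was compared with WT to ask whether enrichment in these regions depended on Mettl3. By mean winscore no region passed, in Zfp genes or elsewhere: 0 of 302 Zfp regions and 0 of 10181 regions in all (0.0% in either direction, limma with Benjamini-Hochberg adjustment, smallest adjusted p = 0.5175). At an unadjusted p under 0.05, 7 of the 302 Zfp regions were lower in KO (2.32%, against 5.08% of the 10181 regions) and 11 were higher (3.64%, against 3.19%). Leaving out a KO replicate changed the count of calls. Without KO replicate 2 the fit called 1321 regions, with 22 Zfp regions higher and 13 lower, and without KO replicate 1 it called 378, with 1 Zfp region higher and 4 lower. The median Zfp region had 3.63 and 3.35 in the KO IPs and 3.15 and 3.43 in the WT IPs, with a median difference of 0.16, against -0.08 over all regions. Of the 302 regions, 127 were lower in KO (42.1%), against 54.3% of all regions. Both KO values were below both WT values in 37 regions (12.3%, against 22.6% of all regions) and above them in 85 (28.1%, against 17.5%). A winscore of at least 2 was kept by 253 and 262 regions in the KO IPs and by 267 and 272 in the WT IPs, and 220 had it in all 4. The shares were 83.8 and 86.8% in the KO IPs and 88.4 and 90.1% in the WT IPs, against 85.3 and 86.7% in the KO IPs and 92.2 and 93.0% in the WT IPs for regions of other genes.

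The winscore has the gene's own median as divisor, and that median was often 0 in the shallow IPs. The IP median was 0 in 47 and 21 of the 169 Zfp genes in the KO IPs and in 2 and 15 in the WT IPs. These were 27.8 and 12.4% in the KO IPs and 1.18 and 8.88% in the WT IPs, and in other genes the shares were higher, at 43.9 and 25.7% in the KO IPs and 1.95 and 22.7% in the WT IPs. Windows without IP coverage made up 41.9 and 32.3% of Zfp windows in the KO IPs and 11.2 and 28.6% in the WT IPs. KO replicate 1 had the most and WT replicate 1 the fewest. Their part in the winscore difference was not tested.

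IP over input without this divisor ran the other way. It was taken as log2((IP + 1)/(input + 1)) of the region mean, minus the library's median outside regions. The median Zfp region had 4.18 and 4.24 in the KO IPs and 4.43 and 4.59 in the WT IPs, with no overlap between the groups. The median difference was -0.30 in 297 Zfp regions whose input coverage averaged 1 or more, against -0.45 over all 9603 such regions. Of the 297 regions, 208 were lower in KO (70.0%), against 77.8% of all regions. Both KO values were below both WT values in 106 (35.7%, against 46.3% of all regions) and above them in 22 (7.41%, against 7.32%). No region passed (0.0% in either direction, smallest limma adjusted p = 0.271). At an unadjusted p under 0.05, 36 of the 297 Zfp regions were lower in KO (12.1%, against 15.3% of the 9603 regions) and 4 were higher (1.35%, against 1.38%). Without KO replicate 2 the fit called 2318 regions, with 54 Zfp regions lower and 8 higher, and without KO replicate 1 it called 770, with 17 Zfp regions lower and 3 higher. Centring on the regions themselves in place of the windows outside them adds 0.43 to the difference of every region. On that scale, which is relative to the regions as a whole, the Zfp median was 0.14.

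**Figure D3:**
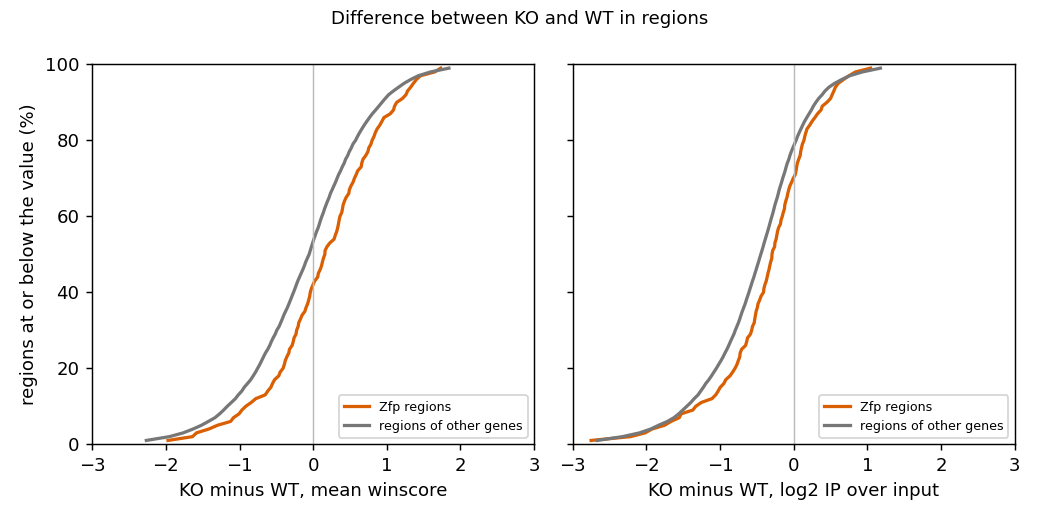
Share of regions at or below a given KO minus WT difference (y axis, %; x axis, log2), by mean winscore (left) and by IP over input (right), for Zfp regions and for regions of other genes at the same RPKM threshold. Both Zfp curves lie to the right of the other genes through most of the range, with medians of 0.16 and -0.30.

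The regions with the smallest p by winscore are named although none passed. Zfp800 exon 1 had -0.38 and 1.75 in the KO IPs against 3.58 and 5.20 in the WT IPs. Its region held only 2 windows, with an IP coverage of 0 and 5.02 in KO cells and 14.7 and 26.4 in WT cells. Zfp667 exon 5 had 0.03 and -0.58 in the KO IPs against 1.26 and 3.45 in the WT IPs, and no IP coverage in either KO library. Zfp715, Zfp142 exon 3 and Zfp61 followed, with KO values between -0.21 and 1.77 and WT values between 2.27 and 3.91. In all 5 genes both KO values were below both WT values, which a choice by smallest p makes likely. In the other direction Zfp148, a GC-box binding transcription factor, had 5.99 and 4.91 in the KO IPs against 3.73 and 3.29 in the WT IPs. Zfp12, Zfp2, Zfp870 and Zfp212 followed, with KO values between 3.63 and 6.20 and WT values between 2.52 and 4.37. Both KO values lay above both WT values in these 5 genes, which the same choice makes likely.

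By IP over input the regions with the smallest p were in part the same. Zfp667 had -0.50 and -0.75 in KO cells against 2.82 and 4.47 in WT cells. Zfp951 exon 1 had 2.51 and 2.30 in KO cells against 4.59 and 4.22 in WT cells. Zfp948 exon 6 had 3.54 and 3.57 in KO cells against 4.66 and 5.12 in WT cells. Zfp106, an RNA-binding protein gene whose region lay in exon 12 of 22, had 3.18 and 3.58 in KO cells against 4.80 and 4.68 in WT cells. Zfp472 exon 4, in a region other than its highest, had 4.16 and 3.90 in KO cells against 5.05 and 5.58 in WT cells. Higher in KO were Zfp747 exon 1, with 5.85 and 5.44 in KO cells against 4.10 and 4.31 in WT cells, and Zfp212, with 4.89 and 4.52 in KO cells against 3.81 and 3.79 in WT cells. Zfp84, Zfp148 and Zfp553 followed with differences of 0.66, 1.31 and 0.60. The adjusted p was at least 0.271 in every case. Zfp148 had no such difference under other region limits: at a winscore threshold of 1, or with regions from the WT IPs, the region from the same first window was wider and had a difference of -0.0364.

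Over the whole gene, Zfp transcripts stood above other genes in IP over input in both genotypes. This measure was added after the data were seen. The median over the 169 genes was 2.34 and 2.42 in KO cells and 2.52 and 2.58 in WT cells, on the log2 scale. For other genes it was 1.00 and 0.986 in KO cells and 1.17 and 1.29 in WT cells. The lowest Zfp gene had -0.94 and -0.74 in KO cells and -0.56 and -0.54 in WT cells, and the highest had 5.21 and 4.69 in KO cells and 4.91 and 4.67 in WT cells. The 0 of this scale was set by windows outside regions in genes with an input coverage there of at least 5. The median WT input coverage of the Zfp genes was 4.71, and the gene sets were not matched for input level. A mean above 0 was found in 165 of 169 Zfp genes (97.6%) and in 80.7% of other genes. The value was lower in KO in 124 Zfp genes (73.4%), against 71.0% of all genes tested, a share near that background. No gene of 11018 passed (0.0%). Leaving out KO replicate 2, the fit called 14 Zfp genes, 12 lower and 2 higher (1920 of all genes), and leaving out KO replicate 1 it called 1 Zfp gene, Zfp382, lower.

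This enrichment was higher in the long exon than in the others. In Zfp genes the longest exon was above the other exons by a median of 1.91 and 1.72 in the KO libraries, 2.17 and 2.10 in the WT libraries and 1.43 in the first pair, in log2 IP over input. In other genes the difference was 0.84 and 0.82 in the KO libraries, 1.15 and 1.19 in the WT libraries and 0.67 in the first pair. The longest exon was higher in 139 and 140 of 168 Zfp genes in the KO libraries and in 146 and 145 in the WT libraries. These were 82.7 and 83.3% in the KO libraries and 86.9 and 86.3% in the WT libraries, against 66.8 and 68.5% in the KO libraries and 76.2 and 73.3% in the WT libraries for other genes. In both gene sets the 2 KO values were below the 2 WT values, and the difference between the gene sets was not tested.

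Transcript level was compared between KO and WT as mean input coverage per window. Of 169 Zfp genes, 14 rose (8.28%) and 18 fell (10.7%), against 13.0% and 13.6% of the 11211 genes tested (limma with Benjamini-Hochberg adjustment, n = 2 per group). The 2 sets were filtered differently. The Zfp genes were chosen by their WT level alone, and the 11211 genes by coverage in any 2 of the 4 inputs. A Zfp gene below the WT threshold that rose in KO cells is therefore not among the 169, and the shares are not matched. The median change was 0.0031 on the log2(coverage + 1) scale, against -0.0048 over all genes, and it ranged from -0.75 to 0.63. With 1 library left out in turn, the number of calls changed both in Zfp genes and over all genes. The median Zfp change was then -0.025 without WT replicate 1 and 0.033 without WT replicate 2. It was 0.0021 without KO replicate 1 and 0.021 without KO replicate 2. In all 4 of these fits 3 rising and 8 falling genes kept their call, and they are described first. The share of all genes that kept a call in this way was not counted, so these numbers have no background beside them. In bulk RNA fewer cells of a type and less RNA per cell cannot be told apart.

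The Zfp gene that rose most was Zfp36, which encodes tristetraprolin, a CCCH protein that directs decay of AU-rich messenger RNAs. Its input coverage was 9.03 and 9.80 in KO cells, 5.69 and 5.77 in WT cells and 16.1 in the first input (log2 change 0.63 ± 0.07 SE, adjusted p = 0.000259). Both KO values lay above both WT values. Zfp819, a KRAB gene of pluripotent cells linked to retroelement silencing, had 5.29 and 5.62 in KO cells against 3.49 and 3.65 in WT cells (0.50, adjusted p = 0.00114). Zfp330 had 20.6 and 21.9 in KO cells against 16.1 and 16.4 in WT cells (0.37, adjusted p = 0.00335).

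On the log2(coverage + 1) scale, which shrinks changes at low coverage, the Zfp gene that fell most was Zfp600. It is a KRAB gene linked to endogenous retroviruses. Its input coverage was 64.1 and 60.7 in KO cells against 98.0 and 114.2 in WT cells (-0.75 ± 0.08 SE, adjusted p = 0.000233). It had the highest WT level of the 169 genes, yet 1.82 in the first input. Zfp951 had 3.64 and 3.71 in KO cells against 6.04 and 7.09 in WT cells (-0.69, adjusted p = 0.00036). By the plain ratio of KO to WT coverage, Zfp951 fell more than Zfp600. Zfp395 had 1.78 and 1.81 in KO cells against 2.95 and 2.97 in WT cells (-0.50, adjusted p = 0.00131). In these genes, and in those that follow, the KO values were all below the WT values, as the naming rule required.

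Zfp534 was the second most abundant of the 169 genes in WT cells. It had 58.6 and 54.5 in KO cells against 70.2 and 85.7 in WT cells (-0.45, adjusted p = 0.0069), and 6.56 in the first input. Zfp219, a transcription factor gene, had 7.88 and 7.64 in KO cells against 11.1 and 10.8 in WT cells (-0.45, adjusted p = 0.00121). Zfp740, whose region was among the 10 highest, had 10.4 and 9.83 in KO cells against 13.9 and 14.1 in WT cells (-0.43, adjusted p = 0.00138). Zfp871 had 4.55 and 4.61 in KO cells against 6.52 and 6.32 in WT cells (-0.41, adjusted p = 0.00234). Zfp809, the KRAB protein that recognises the primer binding site of murine leukaemia virus, had 3.81 and 4.08 in KO cells against 5.19 and 5.83 in WT cells (-0.40, adjusted p = 0.00562). With no filter on low values the calls of Zfp534 and Zfp809 were lost (adjusted p = 0.106 and 0.0745), and those of the other 9 genes held where genes at 0 in all 4 inputs were left out. With those genes kept in, a setting added after the data were seen, the limma adjusted p of all 11 genes was between 0.084 and 0.301 and no Zfp gene was called.

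**Figure D4:**
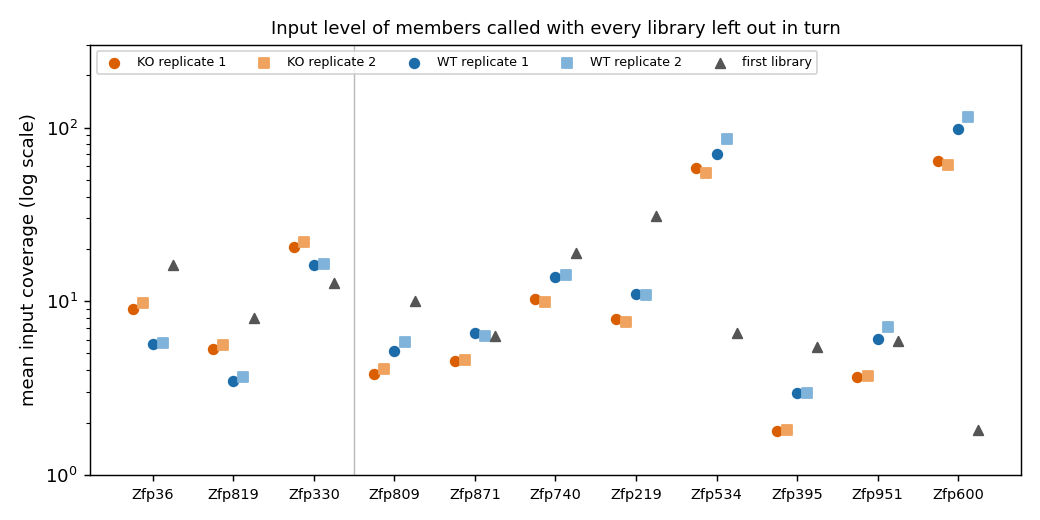
Mean input coverage (y axis, log scale) of the 11 Zfp genes called in every fit that left out 1 library, 3 that rose in KO (left of the line) and 8 that fell (right), with a point for each KO, WT and first input. KO and WT points do not overlap, and the first input is far below both for Zfp600 (1.82) and Zfp534 (6.56).

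The other named genes that passed had smaller changes and lost the call when 1 library was left out. Those that rose were Zfp185 (0.29), Zfp830 (0.29), Zfp72 (0.28), Zfp62 (0.28), Zfp239 (0.28), Zfp637 (0.27), Zfp511 (0.26), Zfp932 (0.26) and Zfp277 (0.24), on the log2 scale. Zfp830 acts in pre-mRNA processing, and Zfp185 is tied to the actin cytoskeleton. Those that fell were Zfp229 (-0.31), Zfp763 (-0.29), Zfp758 (-0.28) and Zfp296 (-0.28). Zfp296 is a stem cell gene that binds Klf4. Without WT replicate 1 the adjusted p of the 9 rising genes was at least 0.084. Without WT replicate 2 that of the 4 falling genes was at least 0.0772. In Zfp genes with a region, 11 rose and 17 fell of 140 (median change -0.01), and in those without, 3 rose and 1 fell of 29 (median change 0.08), against 13.0% that rose and 13.6% that fell of all genes tested. The difference between these sets was not tested.

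The genes were also described by role, in lists of a few genes that were not tested as lists, beside the 13.0% that rose and the 13.6% that fell of all genes tested. Of 8 listed retroelement and imprint repressors 7 were among the 169, and 2 rose (Zfp819 and Zfp932) while 2 fell (Zfp809 and Zfp600), with a median change of -0.02. Zfp568, which silences a placental Igf2 transcript in the mouse, had 19.6 and 16.8 in KO cells and 17.9 and 19.2 in WT cells. Zfp445, a keeper of imprints beside Zfp57, had 11.1 and 11.0 in KO cells and 11.4 and 11.7 in WT cells. Zfp459 had 6.77 and 6.65 in KO cells and 6.43 and 7.21 in WT cells. None of the last 3 genes passed. Of the 7 genes, 6 held 14 regions, of which 5 were lower in KO by winscore and 7 by IP over input, against 54.3% and 77.8% of all regions. The highest region of Zfp809 lay in exon 5, at the end of its longest exon, with 4.92 and 3.50 in the KO IPs, 3.43 and 3.30 in the WT IPs and 4.12 in the first IP, by winscore.

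Of 14 listed genes of stem cell state and transcription, 10 were among the 169, and 0 rose and 3 fell, against 13.0% and 13.6% of all genes tested, with a median change of -0.08. Those that fell were Zfp217, which binds Mettl3 in mouse embryonic stem cells, Zfp148 and Zfp296. Zfp217 had 8.84 and 7.88 in KO cells against 9.68 and 10.2 in WT cells (-0.23, adjusted p = 0.0469), and the call was lost when WT replicate 1, WT replicate 2 or KO replicate 2 was left out. Zfp148 had 3.23 and 3.14 in KO cells against 4.18 and 3.86 in WT cells (-0.26, adjusted p = 0.0281), and of the 4 fits with a replicate left out it kept its call only in that without KO replicate 1. Zfp281, a partner of Nanog that drives exit from pluripotency, had 18.9 and 16.9 in KO cells and 16.1 and 17.3 in WT cells and did not pass. Zfp462, a chromatin-bound factor, had 9.41 and 8.63 in KO cells and 9.41 and 9.07 in WT cells. Zfp410, the activator of Chd4, had 2.66 and 2.92 in KO cells and 2.67 and 2.88 in WT cells and held no region. The other 9 genes held 29 regions, of which 13 were lower in KO by winscore and 21 of 28 by IP over input, against 54.3% and 77.8% of all regions. In the highest region of Zfp281, in exon 2, the winscore was 3.66 and 3.67 in the KO IPs, 3.62 and 3.21 in the WT IPs and 3.24 in the first IP.

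Of 12 listed genes for RNA, ribosome and spindle proteins, 10 were among the 169, and 4 rose and 0 fell, against 13.0% and 13.6% of all genes tested, with a median change of 0.08. Zfp36, Zfp330, Zfp830 and Zfp622 rose. Zfp622, a factor of large ribosomal subunit assembly, had 12.5 and 14.2 in KO cells against 11.0 and 11.4 in WT cells (0.23, adjusted p = 0.0425). Of the 4 fits with a replicate left out, only that without KO replicate 1 kept this call. Zfp598, the ubiquitin ligase that acts on collided ribosomes, had 12.3 and 11.8 in KO cells and 13.5 and 14.1 in WT cells and did not pass (-0.18, adjusted p = 0.0683). Zfp207, a spindle protein, had 44.3 and 47.3 in KO cells and 43.2 and 44.1 in WT cells and did not pass. Zfp106 had 28.9 and 26.8 in KO cells and 31.4 and 30.7 in WT cells and did not pass. Only 5 of the 10 genes held a region, 13 in all, of which 7 were lower in KO by winscore and 8 by IP over input, against 54.3% and 77.8% of all regions. Zfp36 held 3 regions in its 3′ exon 1. By IP over input both KO values were below both WT values in each, as in 46.3% of all regions. The highest had 3.39 and 2.89 in KO cells against 4.05 and 4.33 in WT cells. Over the whole gene, IP over input of Zfp36 was 2.56 and 1.96 in KO cells and 2.52 and 2.83 in WT cells, so the groups overlapped.

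Among 31 measured genes, from a list of silencing partners of KRAB proteins and Zfp57, 2 rose and 7 fell. The shares of all genes tested were 13.0% and 13.6%, and the median change of the 31 genes was -0.02. Whether these calls held with a replicate left out was not examined. Trim28, the corepressor that binds the KRAB domain, had 153.1 and 136.9 in KO cells against 181.0 and 192.7 in WT cells (-0.37, adjusted p = 0.00881). D14Abb1e (-0.49), the DNA methylation cofactor Uhrf1 (-0.45), the imprint keeper Zfp57 (-0.33), the heterochromatin protein Mphosph8 (-0.30), Morc3 (-0.27) and the histone methyltransferase Ehmt2 (-0.22) fell too. The DNA methyltransferase Dnmt3b (0.40) and Pphln1 (0.24) rose. Setdb1, the methyltransferase that Trim28 recruits, had 17.1 and 16.9 in KO cells and 16.4 and 17.0 in WT cells and did not pass. A region was found in 20 of the 31 genes, against 54.0% of all genes at the RPKM threshold, and Trim28 had none.

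The deposited RPKM table gave another picture, and its columns labelled KO did not follow the KO inputs. Over the 169 genes the median was 18.2 and 17.8 RPKM in the columns labelled KO and 4.72 and 5.07 in the WT columns. Tested in the same way, 135 of the 169 Zfp genes were higher (79.9%, against 40.9% of all genes tested) and 7 lower (4.14%, against 24.1%), with a median difference of 1.57 on the log2(RPKM + 1) scale, against 0.28 over all genes. Across the Zfp genes, the columns labelled KO replicates 1 and 2 correlated at 0.973 and 0.983 with the KO IP tracks of the same number and at 0.587 and 0.607 with the KO input tracks. Both WT columns correlated at 0.997 with their own input tracks. Genes are not independent replicates, and these tracks share libraries. Median input coverage was 4.99 and 4.75 in KO cells and 4.58 and 4.78 in WT cells, and median IP coverage 15.9 and 16.2 in KO cells and 16.7 and 15.8 in WT cells. Transcript levels were for this reason read from the input coverage.

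**Figure D5:**
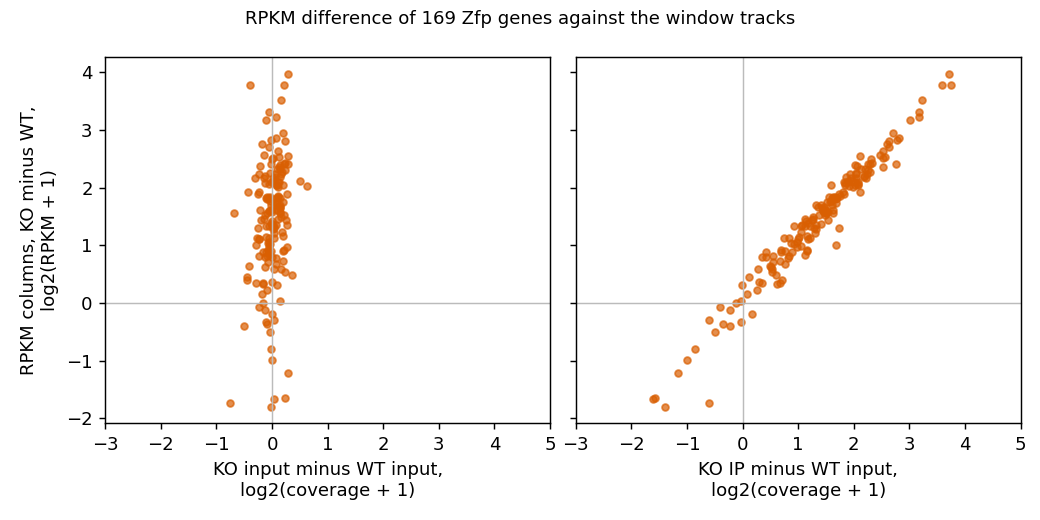
Difference between the RPKM columns labelled KO and WT (y axis, log2(RPKM + 1)) for the 169 Zfp genes, against KO input minus WT input (left) and KO IP minus WT input (right), both in log2(coverage + 1). The points follow the diagonal on the right and not on the left; WT values enter both axes.

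The first input was far below the WT inputs in some Zfp genes, at a share no higher than in other genes. In 14 of the 169 genes the first input was under 0.5 of the WT mean (8.28%, against 10.6% of other genes), a limit set after the data were seen. In 9 of them it was under 0.25 of the WT mean, a limit for which the share in other genes was not counted. Zfp781 had an input coverage of 0.036 in the first input, 4.71 and 4.51 in KO cells and 3.91 and 4.70 in WT cells. Zfp433 had 0.055 in the first input, 5.17 and 5.82 in KO cells and 4.59 and 6.18 in WT cells. These 2 genes were thus nearly empty in the first library alone. Zfp97 and Zfp960 had the same coverage in 12 windows in all 4 KO and WT inputs, so their reads in those inputs cannot be told apart there. The first input and the IPs were not part of this comparison. The column headers of the first pair carry the word unique, which those of the other pairs do not, and its part in these values was not tested.

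Of these 14 genes, 7 had a region in the first IP, and 13 had one when regions were taken from the mean winscore of the WT IPs. Of the other 155 Zfp genes, 133 had a region in the first IP and 146 had one from the WT IPs, so the count was higher there too. Zfp600, without a region in the first IP, had one near the start of exon 6, with winscores of 0.39 in the first IP, 3.70 and 4.06 in the KO IPs and 3.76 and 4.10 in the WT IPs. The KO and WT values of this region overlapped. With regions from the WT IPs 159 of the 169 genes had a region, and 8 had none in either set: Zfp185, Zfp382, Zfp410, Zfp414, Zfp428, Zfp580, Zfp692 and Zfp931. Without the 14 genes there were 292 regions in 133 genes, a median winscore difference of 0.14, a median IP over input difference of -0.31, and 13 genes that rose and 16 that fell.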

How the data were processed

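The 10 libraries were grouped by the labels. Reads were aligned with TopHat 1.1.3 to mm9, as the submitters' processing notes list. How reads were filtered, assigned to gene models and counted by strand is not given in the sources used here, so overlapping genes and close copies are uncertain. The deposited files give coverage, a signal, per exon window, with no coordinates. The deposited log2 winscore was recomputed as log2(((IP + 1)/(IP gene median + 1))/((input + 1)/(input gene median + 1))) and matched in all 1510223 windows. This formula also tied each input column to the replicate number of its IP. RPKM values come from the authors' deposited table, per the file headers. Input columns carry no replicate label of their own beyond this.

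Regions, on genes with a mean WT RPKM of at least 1, and genes with an input coverage of at least 1 in at least 2 of 4 KO and WT inputs were tested over all features with limma 3.58.1 in R 4.3.3 (lmFit, eBayes with trend, Benjamini-Hochberg, threshold 0.05) without a replicate block. IP over input was centred on windows with a winscore under 1 and genes with an input coverage there of at least 5 (5971 genes). Depth was total coverage over the library's smallest step. The tests were also run on simulated data, with changes planted in regions that were far larger than the median differences found here. These runs do not show the power of the region tests at such smaller sizes. Tables were made with Python 3.11.15, numpy 2.4.6 and pandas 2.3.3, figures with matplotlib 3.10.9. Older symbols and strands came from RefSeq: 166 genes matched by symbol and 3 by synonym, and 140 had a strand.

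Named genes were, by rule, up to 12 per direction that passed at transcript level without overlap, the 10 highest regions, the 5 smallest p per direction and measure, the 5 genes with most regions, the 6 highest inputs, and the role lists. The genes and lists were chosen with earlier results of these data known. Alternatives covered thresholds, filters, pseudocount, scaling, block and left-out replicates. Sequences are not shown.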

Additional observations from a re-analysis of the deposited data

How the results depend on the processing

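The counts of Zfp regions were 469 at a winscore threshold of 1, 161 (in 93 genes) at 3, and 483 with regions from the WT IPs. The labels do not say whether the replicate numbers pair the libraries. Deviations of same-numbered KO and WT libraries correlated at 0.025 (winscore), 0.011 (IP over input), -0.027 (input) and 0.027 (whole-gene IP over input). Such correlations cannot show how the libraries were handled. With the replicate number as a block, 65 regions were called by winscore, 1 of them a Zfp region, lower in Zfp800; 0 were called by IP over input, and for input 14 Zfp genes rose and 13 fell. Leaving out 1 replicate leaves a lone library, assumed to vary like the others. Regions called by winscore were then 0 to 1321, with 0 to 22 Zfp regions higher and 0 to 13 lower (median difference 0.04 to 0.33). By IP over input they were 0 to 2318, with 0 to 8 Zfp regions higher and 0 to 54 lower (median -0.35 to -0.20). For both measures the calls came without KO replicate 1 or 2, and 0 without a WT replicate. Whole-gene IP over input gave 0 to 1920 genes, 0 to 2 Zfp genes higher and 0 to 12 lower, and a median of -0.12 with the authors' scaling alone. For input, 1743 to 3144 genes were called, with 3 to 15 Zfp genes up and 8 to 18 down. Without a filter 762 genes were called (3 Zfp genes up, 6 down), and 15 (0 and 0) when genes at 0 in all libraries stayed in, a setting added after the data were seen. With a coverage of at least 5, 1930 were called. The effect of IP depth on the region measures was not tested.

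Under other region limits a named region got a value only where it kept its first window. The signs of some uncalled values depended on the setting. By winscore, ranges over left-out replicates crossed 0 for the highest regions of Zfp191 (-0.29 to 0.87), Zfp266 (-0.12 to 0.44), Zfp275 (-0.0102 to 0.82), Zfp597 (-0.42 to 0.83) and Zfp64 (-0.86 to 0.50). By IP over input they did for Zfp142 (-0.24 to 0.10), Zfp266 (-0.23 to 0.0078), Zfp275 (-0.46 to 0.00103), Zfp597 (-0.18 to 0.95) and Zfp84 (-0.0651 to 0.28). Centring on the regions adds 0.43 to every region, so values are relative to the regions as a whole; the Zfp median was then 0.14, with Zfp142 at 0.36, Zfp266 at 0.32, Zfp275 at 0.20 and Zfp64 at 0.041. With regions from the WT IPs Zfp84 was at -0.0061 and Zfp148 at -0.0364, as at threshold 1. For input the range crossed 0 for Zfp410 (-0.0435 to 0.0574), Zfp459 (-0.0902 to 0.0524), Zfp462 (-0.089 to 0.0237), Zfp568 (-0.13 to 0.0807), Zfp706 (-0.085 to 0.15), Zfp945 (-0.0386 to 0.0618) and Zfp97 (-0.10 to 0.27).

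The deposited RPKM columns called 7965 genes (135 Zfp genes higher, 7 lower, median 1.57) and turned the sign of Zfp143 (0.22), Zfp148 (1.30), Zfp185 (-1.22), Zfp217 (1.60), Zfp219 (0.45), Zfp229 (2.16), Zfp277 (-1.65), Zfp292 (1.81), Zfp296 (1.13), Zfp410 (-0.99), Zfp445 (1.60), Zfp459 (2.83), Zfp462 (1.76), Zfp516 (1.06), Zfp534 (0.39), Zfp568 (1.39), Zfp598 (0.16), Zfp704 (0.61), Zfp706 (-1.66), Zfp740 (1.92), Zfp758 (0.34), Zfp763 (1.01), Zfp809 (3.78), Zfp871 (0.65) and Zfp951 (1.56). These columns follow the KO IP tracks. The cause of the other changes was not tested.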
